A study of Saccharomyces cerevisiae with 21 samples.

Results

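The cytosolic ribosomal protein genes of the budding yeast Saccharomyces cerevisiae were followed through a time course of cells released from G1 arrest. The family was taken as every locus of the table with an RPL or RPS symbol, a number and at most a final A or B, together with the acidic stalk genes RPP0, RPP1A, RPP1B, RPP2A and RPP2B. This gave 137 of the 7126 loci, of which 76 encode large subunit proteins, 56 encode small subunit proteins and 5 encode the stalk. Of these, 118 genes form 59 pairs of A and B copies and 19 have no second copy under the same name. All 137 were matched to the R64 annotation, none was listed at 0 in any library, and all passed the minimum mean of 1 FPKM.

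The RNA came from a single time course of the clb1-6 mutant, sampled every 10 min from 0 to 200 min after release, with 1 library per time point and 21 libraries in all. Per the labels the strain was BF264-15D MATa with bar1::hphMX4 and arg4, with clb1::URA3 together with clb2::LEU2, with clb3::TRP1 and also clb4::HIS2, and with clb5::ARG4 beside clb6::ADE1, and with the construct PGAL1-CLB1::LEU2, so all 6 B-type cyclin genes were disrupted and a copy of CLB1 was left under the galactose-driven GAL1 promoter. Cells were arrested with 30 ng/ml alpha-factor for 160 min and moved at 30 °C out of galactose medium, in which that copy is on, and into dextrose medium, in which the promoter is repressed. Every library carries all of these alleles, so the comparisons are between times of the same mutant culture: a late window of 10 libraries (110 to 200 min), an early window of 10 libraries (10 to 100 min), and the 0 min library at the arrest. Release and the change of sugar began together and cannot be told apart.

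Ribosomal proteins are made in near equal numbers, since each assembled ribosome takes a copy of nearly every one, and their mRNAs are among the most abundant of a growing yeast cell. Many of the genes are duplicated, with an A and a B copy that encode the same or nearly the same protein. Their promoters are commonly bound by Rap1, which works with Fhl1, Ifh1 and Sfp1, and their transcription follows growth signals such as the supply of sugar.

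How far the A and B copies can be told apart by their reads depends on how much their coding sequences differ. Identity over the aligned coding sequences ran from 69.2% to 99.4% (median 93.2%), and 20 of the 59 pairs were at least 95% identical. The stretches below are the last run of 120 bases without a gap in the aligned coding sequences, in R64 and 5′ to 3′ on the coding strand, with bases that differ from the other copy in capitals. They are shown because the RPL22 and RPL8 copies carry the pair results with the widest range, and because the RPL1 copies do not differ here at all. RPL22A (chrXII:263804-263923, + strand) and RPL22B (chrVI:64271-64390, - strand) differ at 24 of the 120 bases, RPL8A (chrVIII:35255-35374, - strand) and RPL8B (chrXII:47859-47978, - strand) at 4, and RPL1A (chrXVI:136324-136443, + strand) and RPL1B (chrVII:255175-255294, + strand) at 0.
RPL22A: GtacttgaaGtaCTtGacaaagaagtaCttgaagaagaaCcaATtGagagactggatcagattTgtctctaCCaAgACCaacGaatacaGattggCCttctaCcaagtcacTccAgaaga
RPL22B: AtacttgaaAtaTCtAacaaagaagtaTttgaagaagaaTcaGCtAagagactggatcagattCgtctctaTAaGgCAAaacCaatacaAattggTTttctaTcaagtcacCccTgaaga
RPL8A: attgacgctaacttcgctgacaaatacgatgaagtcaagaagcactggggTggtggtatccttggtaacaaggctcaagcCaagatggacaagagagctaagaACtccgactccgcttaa
RPL8B: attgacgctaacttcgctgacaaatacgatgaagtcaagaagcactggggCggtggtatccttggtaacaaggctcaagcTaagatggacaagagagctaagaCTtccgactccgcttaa
RPL1A: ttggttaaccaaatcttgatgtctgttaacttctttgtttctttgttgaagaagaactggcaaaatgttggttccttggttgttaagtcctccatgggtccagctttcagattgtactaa
RPL1B: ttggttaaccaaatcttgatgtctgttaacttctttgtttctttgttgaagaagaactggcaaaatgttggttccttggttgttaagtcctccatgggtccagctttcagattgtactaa

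Depth cannot be stated, because the deposited values are FPKM, fragment numbers that the authors scaled by transcript length and library, and no read counts were used here. The sum of FPKM per library lay between 1212671 at 180 min and 1911174 at 0 min, and no 2 of the 21 libraries held identical values (210 pairs compared). The MATa pheromone genes MFA1, MFA2 and STE2 had mean levels of 6340, 7833 and 375 FPKM, while the MATalpha genes MF(ALPHA)1, MF(ALPHA)2 and STE3 had 0.624, 3.25 and 8.45 FPKM. BAR1, a further MATa gene that is disrupted in this strain (bar1::hphMX4), had a mean of 2.16 FPKM, below that of STE3. CLB4 was listed at 0 in every library, and the loci CLB1, CLB2, CLB3, CLB5 and CLB6 gave mean levels between 24.95 (CLB3) and 139.9 FPKM (CLB1). Which part of those disrupted loci gave the reads was not tested. The values cannot tell fewer cells with a transcript from less transcript per cell.

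Ribosomal protein mRNAs were among the most abundant of the table throughout. Their mean levels over the 21 libraries ran from 48.2 FPKM for RPL15B to 39506 FPKM for RPL39, with a median of 2719 FPKM against 43.1 FPKM over the 6198 loci with a mean of at least 1 FPKM. Of the 100 most abundant loci, 63 were ribosomal protein genes. The highest levels belonged to RPL39, whose small protein lines the nascent chain exit tunnel, to RPL30 (20423 FPKM), whose product is known to bind its own transcript, to RPS27B (20159 FPKM) and to RPS31 (19818 FPKM), which encodes a ribosomal protein fused to ubiquitin. The lowest belonged to RPL15B, RPL7B (78.6 FPKM), RPL4B (171 FPKM) and RPS6A (177 FPKM), each the weaker copy of its pair. Of the 50-base windows of RPL7B 56.9% also occur in RPL7A, and of those of RPL4B 72.7% occur in RPL4A, so these levels are uncertain. FPKM is scaled by length, yet levels still went with length. The 19 members under 300 coding bases had a median of 11016 FPKM, against 2438 FPKM for the other 118, and RPL39 has 156 coding bases. A comparison of levels between genes of unlike length is therefore limited, and the shortest members are the least certain.

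The family was high at the arrest and around 50 min and ended low, with lower values of the median member between these times. Relative to each gene's own mean on the log2(FPKM + 1) scale, the median member had 0.56 in the 0 min library and 0.15 in the 20 min library. It had 0.57 at 50 min and -0.36 at 110 min, and later -0.58 (180 min) and -0.25 (200 min). The median of all loci stayed between -0.04 and 0.05 over the same libraries. The share of all FPKM that fell to the 137 genes was 39.7% in the 0 min library, 38.4% at 10 min, then 41.2% (20 min) and 44.9% (30 min), was highest at 48.2% at 50 min, and was lowest at 31.3% at 180 min. The share at 20 and 30 min was thus above that at 0 min while the median member was below, and the sign of that early difference depends on the scaling. The highest value of the course fell at 0 min for 58 members, at 50 min for 29 and at 40 min for 21, and the lowest fell at 180 min for 92 members.

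**Figure D1:**
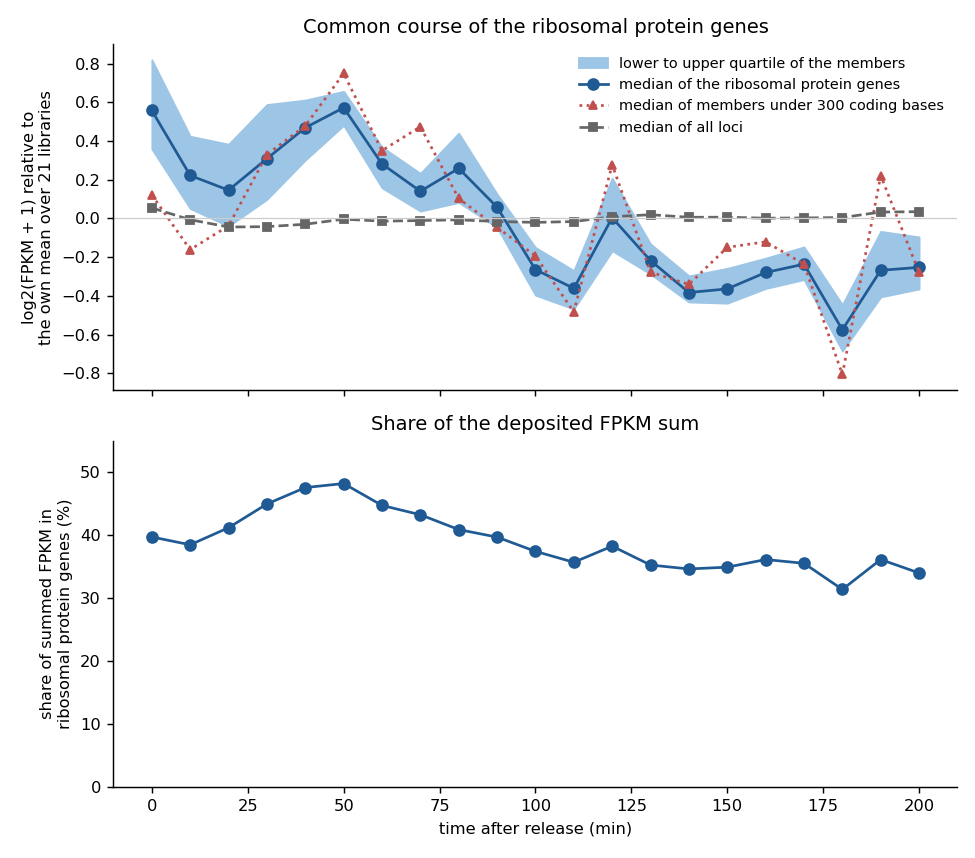
The upper panel plots log2(FPKM + 1) relative to each gene's own mean against time after release in min, as the median of the 137 ribosomal protein genes with the lower to upper quartile shaded, the median of the 19 members under 300 coding bases, and the median of all loci. The lower panel plots the percentage of summed FPKM in the 137 genes, which is highest at 48.2% at 50 min and lowest at 31.3% at 180 min.

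Single libraries moved the members together. At 120 min 116 of 137 members were above their 110 min value, and at 180 min all 137 were below their 170 min value, in the library with the lowest sum of FPKM. These steps went with coding length. From 170 to 180 min the median step of the 19 members under 300 coding bases was -0.65, against -0.30 for the other 118, and from 180 to 190 min it was 0.84 against 0.25. Short loci outside the family moved the same way, with median steps of -0.35 and 0.51 at those times (174 short loci) against -0.04 and 0.00 for the longer ones, among 2530 loci with a mean of at least 50 FPKM. The part of length in the results was not tested. Across the 137 genes, Pearson's r between log2 coding length and the step was at least 0.5 in size at 8 of the 20 steps, as a description over genes that share their libraries. The late minus early difference had an r of -0.04 with length.

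A smooth change over time was tested with a spline of 6 degrees of freedom (limma, log2(FPKM + 1), all loci, Benjamini-Hochberg adjustment). Calls needed an adjusted p under 0.05 and a fitted curve spanning 1 or more log2 units. By this rule 78 of 137 members were called, or 56.9%, where 44.8% of the 6198 loci were called. The count was 37 with one sum of FPKM per library, 45 without the 0 and 10 min libraries and 48 with a spline of 4 degrees of freedom. The shares of all loci under these settings are not given here, so these counts cannot be set against the 44.8%. The fitted curve of 77 of the 78 ended below its start, and that of RPL41B ended above it. The RPL41B call was lost without the 0, 30, 50 or 60 min library (adjusted p between 0.0586 and 0.0759). It was also lost with a spline of 8 degrees of freedom (adjusted p = 0.0727). The median fitted range was 1.07 for the members and 0.99 for all loci, so the family did not stand far from the other loci in the size of its change. Time points of the same culture are not independent replicates, so these p-values and those below are too small.

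The late window was lower than the early window for most of the family. Of the 137 members 112 were lower late at an adjusted p under 0.05 in limma, or 81.8%, where 22.7% of 6194 loci were lower, and 1 member, RPS25B, was higher, where 25.9% of loci were higher. The median difference of the members was -0.52 on the log2 scale, a late level of 0.695 times the early level, against 0.04 for all loci. With one sum of FPKM per library the medians were -0.31 for the members and 0.24 for all loci, so the size of the member value depends on the scaling. With every other time point 60 members were lower late, a count that cannot be set against the 22.7%, as the share of loci under that setting is not given. All 10 late libraries lay below all 10 early ones for 24 members, where 3.07% of loci did so, and the reverse held for 0 members, where 2.32% of loci did so. The large subunit genes had a median of -0.52 with 63 of 76 lower, and the small subunit genes had -0.55 with 47 of 56 lower. The 89 genes with an intron in the coding sequence had a median of -0.52 and the 48 without one -0.55. Of the 19 members under 300 coding bases 9 were lower late, with a median of -0.58, and of the other 118 members 103 were, with a median of -0.52.

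The members with the lowest late values were RPL8A, RPL22B, RPL40B, RPS8B, RPL16A and RPS13. RPL8A (YHL033C, chrVIII:35255-36025, - strand, 1 coding exon) encodes a large subunit protein that also has an RPL8B copy. It had 96.5, 126 and 210 FPKM as the lowest, median and highest late values, against 128, 314 and 564 FPKM early, after 867 FPKM at 0 min. The late and early values overlapped narrowly, and the difference was -1.15 (SE 0.20, adjusted p = 9.11e-05). RPL22B (YFL034C-A, chrVI:64243-64932, - strand, 2 coding exons) had 317, 388 and 456 FPKM late, against 491, 784 and 1645 FPKM early. Its windows did not overlap, and the difference was -1.05 (SE 0.19, adjusted p = 0.000181).

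RPL40B, which like RPS31 encodes a fusion of ubiquitin and a ribosomal protein, had 1751, 2381 and 2556 FPKM late against 3016, 4360 and 6235 FPKM early, a difference of -0.92 (SE 0.14, adjusted p = 3.98e-05). RPS13, a small subunit gene with no second copy, had 3452, 4215 and 5018 FPKM late against 5165, 7494 and 9266 FPKM early, a difference of -0.86 (SE 0.10, adjusted p = 4.64e-06). RPL16A differed by -0.86 (adjusted p = 2.90e-05) and RPS8B by -0.87 (adjusted p = 0.000937), a call lost for 160 to 200 min minus 60 to 100 min (-0.66, adjusted p = 0.0948). The windows of RPL40B, RPS13 and RPL16A did not overlap, and those of RPS8B did.

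At the other end, RPS25B encodes a small subunit protein known for its part in initiation at viral internal entry sites. It had 3071, 3606 and 4664 FPKM late against 2376, 3086 and 3439 FPKM early, with overlapping windows and a difference of 0.28 (SE 0.09, adjusted p = 0.0121). Without the 120, 180 and 190 min libraries its difference was 0.22 (adjusted p = 0.0665). RPL15B had a difference of 0.25 (adjusted p = 0.0611), RPL37A of 0.17 (0.165), RPP0 of 0.12 (0.209), RPL26A of 0.05 (0.594) and RPS29A of -0.08 (0.754), none of which passed. With one sum of FPKM per library RPL15B (0.46, adjusted p = 0.0016), RPL37A (0.39, adjusted p = 0.000483), RPP0 (0.34, adjusted p = 0.00177) and RPL26A (0.27, adjusted p = 0.00451) passed as higher late. Under that scaling the median of all loci was itself 0.24, near the value of RPL26A. The share of all loci higher late under it is not given here. RPL15B also passed without the 10, 80, 140, 150 or 180 min library (adjusted p between 0.0211 and 0.0483), and with one sum outside the family, as did RPL37A (adjusted p = 0.0202 for RPL15B and 0.0496 for RPL37A). The smallest fitted ranges over time, all without a call, were those of RPL26A (0.30), RPS31 (0.33), RPL6B (0.41), RPL37B (0.44), RPL37A (0.48) and RPS1A (0.55).

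**Figure D2:**
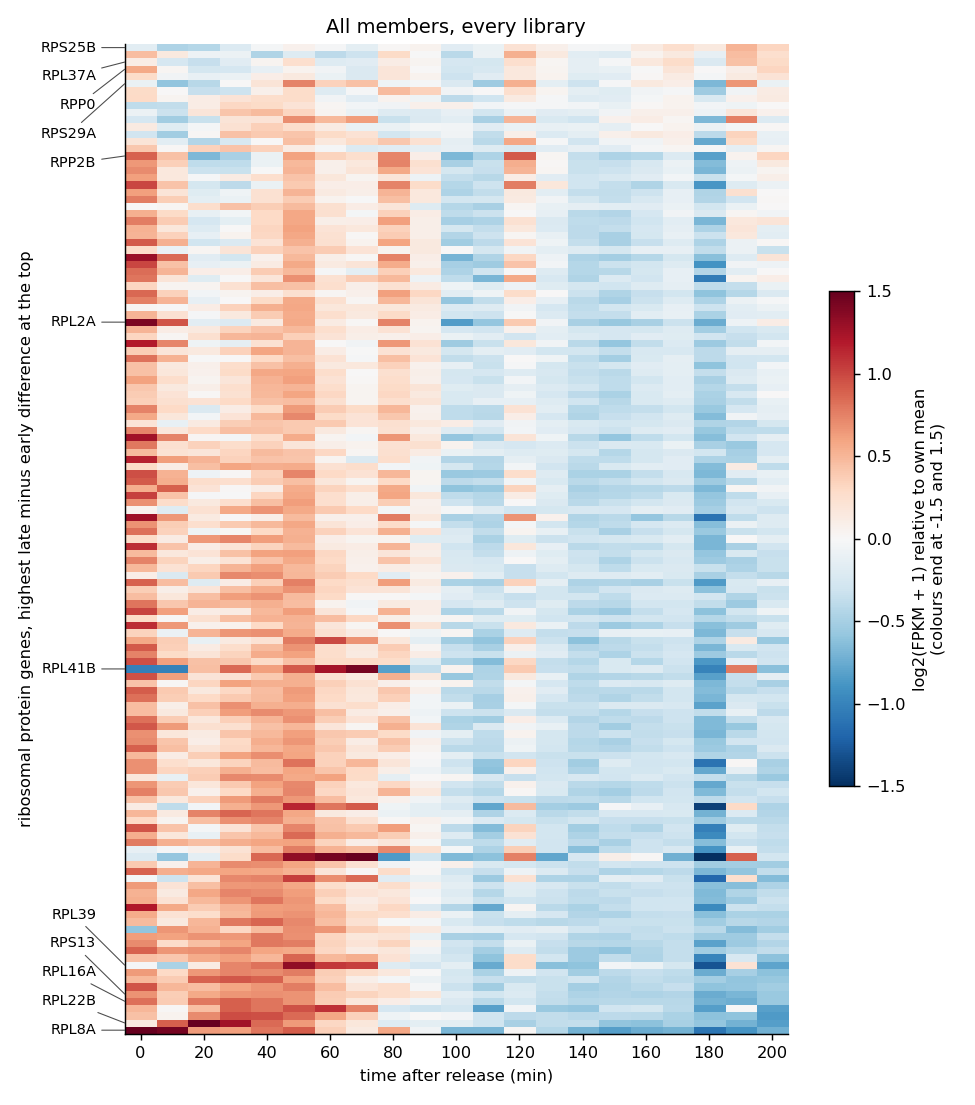
Each row is 1 of the 137 genes and each column a library at its time in min, coloured by log2(FPKM + 1) relative to the gene's own mean (colours end at -1.5 and 1.5). Rows run from RPS25B at the top (late minus early difference 0.28) to RPL8A at the bottom (-1.15), and the 180 min column is blue in most rows.

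Many members that were not lower late lay on the right part of chromosome XII, a grouping seen only after the values were known and therefore given with no test of its own. The R64 annotation places the ribosomal RNA genes of that chromosome between bases 451786 and 489469, and 13 members start to the right of them: RPS31, RPL37A, RPS28B, RPS30A, RPL38, RPS25B, RPP0, RPL26A, RPS22B, RPS29A, RPL31B, RPS1A and RPL6B. Of these 13, 1 was lower late (RPS28B), 1 was higher (RPS25B) and 11 did not pass, with a median difference of -0.09. Of the other 124 members 111 were lower, 0 were higher and 13 did not pass, with a median of -0.55. The 5 members to the left of the ribosomal RNA genes on the same chromosome (RPL8B, RPL15A, RPS0B, RPL22A and RPL10) were all lower, with a median of -0.50. The medians of the other chromosomes lay between -0.67 (XI, 5 members) and -0.38 (III, 1 member).

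Loci outside the family had nearly the same median on both sides of the ribosomal RNA genes. The 263 others to the right of the ribosomal RNA genes had a median difference of 0.15 with 14.8% lower and 33.5% higher, and the 204 to the left had 0.14 with 14.7% lower and 32.8% higher. The 5329 other loci not on the right part had a median of 0.03. At 0 min, outside both windows, the median relative level of the 13 members was -0.09, against 0.62 for the other members. At 180 min, inside the late window that prompted the grouping, it was -0.09 against -0.61. Levels are relative to each gene's own mean over all 21 libraries, so neither value is independent of the grouping. The distance between the 2 medians, 0.46 in the windows as defined, lay between 0.40 and 0.56 over the 33 settings computed, one sum of FPKM per library and each left-out library among them.

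**Figure D3:**
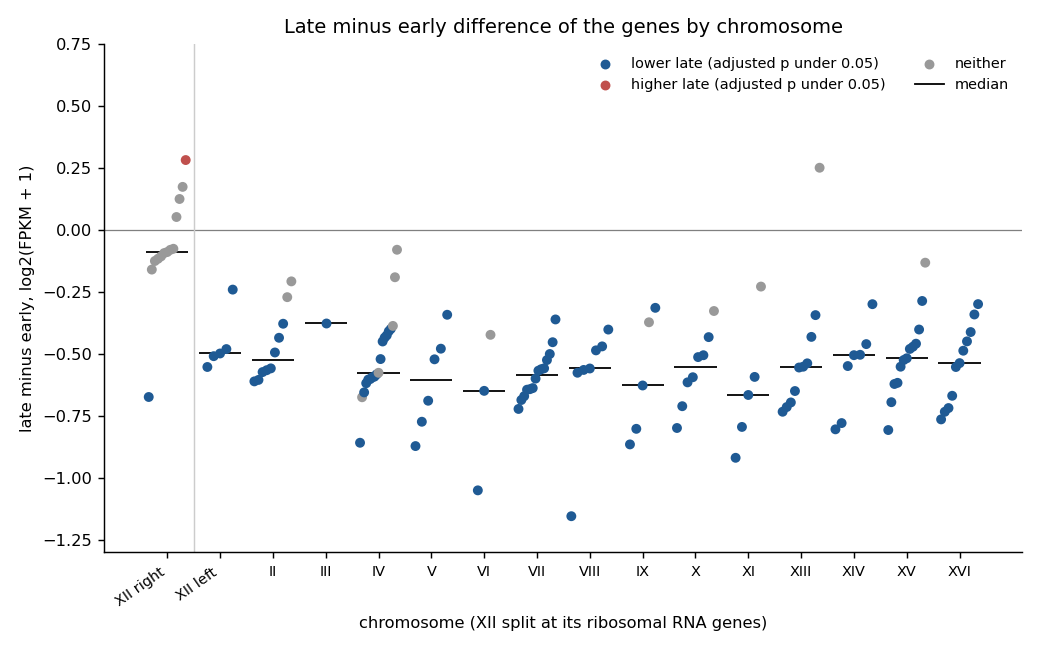
Each point is the late minus early difference of 1 of the 137 genes on the log2(FPKM + 1) scale, by chromosome, with XII split at its ribosomal RNA genes, black lines at the medians and colours for the limma call. The 13 genes right of the ribosomal RNA genes have a median of -0.09 and the other 124 genes one of -0.55.

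The paralogue pairs gave a comparison inside each library, in which its scaling all but cancels. As the grouping was prompted by the same late and early values, the ratios of these pairs are a description and carry no test here. Of the 10 pairs with a copy right of the ribosomal RNA genes, the late minus early difference of that copy over the other was positive in 9 and negative in 1, the RPS28 pair. It was 0.77 for RPL26A over RPL26B, 0.64 for RPS25B over RPS25A, 0.62 for RPS22B over RPS22A and -0.54 for RPS28B over RPS28A. In those 9 pairs the late minus early difference of the copy elsewhere ran from -0.08 (RPL37B) to -0.72 (RPL26B). That it was the lower of the pair follows from the sign of the ratio and is no further observation.

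The stalk proteins form the arm of the large subunit that recruits translation factors, with RPP0 at its base and the P1 and P2 proteins attached to it. RPP1A had 4714, 6100 and 7395 FPKM late against 7622, 9119 and 11397 FPKM early, without overlap, and fell by 0.59 (SE 0.10, adjusted p = 7.07e-05). RPP2A had 2034, 2845 and 3645 FPKM late against 2969, 4392 and 5247 FPKM early, and fell by 0.62 (SE 0.11, adjusted p = 0.00019). RPP1B (difference -0.39, adjusted p = 0.0597), RPP2B (-0.19, 0.482) and RPP0 (0.12, 0.209) did not pass. RPP1B passed as lower under 6 alternatives, for example without the 120 min library (-0.48, adjusted p = 0.0141). RPP1B and RPP2B were called over time with fitted ranges of 1.14 and 1.46, but each call was lost without the 0 min library (adjusted p = 0.14 and 0.236), and without several other single libraries.

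The mean of the 20, 30 and 40 min libraries was set against the 0 min library with no test, since the arrest has only 1 library. The median difference was -0.27 for the members and -0.09 for all loci on the log2 scale. Of the 137 members 92 were lower and 45 higher. At least 1 lower were 10 members, where 18.8% of all loci were, and at least 1 higher were 3 members, where 10.8% of loci were. The lowest were RPL2A (-1.49) and RPL2B (-1.42), which encode a protein near the peptidyl transferase centre, and RPL8A (-1.37). RPL4A, RPL4B, RPS4A, RPS4B, RPS14A, RPL13B and RPP2B made up the rest of the 10. RPL41B (1.66), RPL22B (1.08) and RPS9A (1.02) were the 3 that were higher. With every library scaled to the same sum outside the family the median difference was 0.053, so the sign of this median depends on the scaling.

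Departures from the common course were tested on each gene minus the mean of the other members in the same library. By the same call rule in limma, 22 members departed, or 16.1%, where 69.5% of all loci did so against the same mean. Without the 0 min library 11 were called, and 12 each without the 0 and 10 min libraries and under the spline with 4 degrees of freedom. Pearson's r of a member with the mean of the others over the 21 libraries had a median of 0.889, was at least 0.8 for 104 members and was under 0.5 for 12. It was highest for RPL28 (0.992) and below 0 for RPS25B (-0.385) and RPL15B (-0.020). Of the 19 members under 300 coding bases 7 departed. Of the 13 members right of the ribosomal RNA genes 8 departed. That grouping was prompted by values of the same libraries, so the latter count is no further observation.

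The largest departures had different courses. RPL41B, whose protein is among the smallest of the ribosome, had 5432 FPKM at the arrest, 15095 at 20 min, 29889 at 70 min, then 6311 at 80 min and finally 7179 at 200 min (departure 2.33, adjusted p = 0.038). RPL39 had 34866 FPKM at the arrest, 88668 at 50 min, 72095 at 70 min, then 30838 at 80 min and finally 20458 at 200 min (departure 1.44, adjusted p = 0.0254). Both coding sequences are under 300 bases, and both calls were lost without some single libraries (for example without the 60 min library, adjusted p = 0.0625 for RPL41B and 0.0862 for RPL39). The RPL41 copies are 98.7% identical, and 69.0% of the 50-base windows of the B copy also occur in the A copy. The split of reads between RPL41A and RPL41B is therefore uncertain. From 70 to 80 min the median step of the short members was -0.31, against 0.19 for the longer members, and that of short loci outside the family was -0.38, against 0.04.

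RPL8A departed by a decline that went further than that of the others (2.12, adjusted p = 4.19e-08) and RPL22B by a peak at 20 min (1.59, adjusted p = 0.000387). RPS25B departed by its rise (1.41, adjusted p = 6.98e-10), with its lowest values at 10 and 20 min (2376 and 2437 FPKM) and its highest at 190 min (4664 FPKM). RPL2A departed by 1.41 (adjusted p = 0.00331), a call lost without the 0 min library (adjusted p = 0.0871). It had 1405 FPKM at the arrest, 455 at 30 min, 884 at 80 min, then 295 at 100 min and finally 690 at 120 min, and RPL2B had 4224, 1429, 2906, 1069 and 2139 FPKM at the same times. RPL4B, which encodes a protein of the exit tunnel wall, was likewise higher at 0, 80 and 120 min than at 30 and 100 min, with 384 FPKM at the arrest, 159 at 30 min, 272 at 80 min, then 113 at 100 min and finally 255 at 120 min. The RPL2 copies shared these swings. The RPL4 copies are 98.9% identical, and 72.7% of the 50-base windows of RPL4B occur in RPL4A, so the split of their reads is uncertain.

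Levels differed between the copies of many pairs. The mean A over B ratio was at least 2-fold in 26 of 59 pairs, with A higher in 18 and B higher in 8. In 50 pairs the same copy was higher in all 21 libraries (A in 28, B in 22), and in 9 the order changed. RPL15A stood 53.1-fold over RPL15B, and RPL7A 9.22-fold over RPL7B. RPS9B stood 14.8-fold over RPS9A, RPS27B 10.3-fold over RPS27A and RPL8B 7.37-fold over RPL8A. The most equal pairs were RPS30 (A over B 1.02-fold), RPL35 (1.02-fold), RPL20 (0.864-fold) and RPS19 (0.842-fold). The RPL35 copies are 99.2% identical. Of the 50-base windows of RPL35A 80.6% also occur in RPL35B, and of those of RPL7A 56.9% occur in RPL7B. The split of reads in these pairs, and so their ratio, is uncertain. RPL7A and RPL7B overlap small nucleolar RNA genes in the annotation (SNR39 and SNR59), as does RPS22B (SNR44), so their values may hold reads of another gene.

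**Figure D4:**
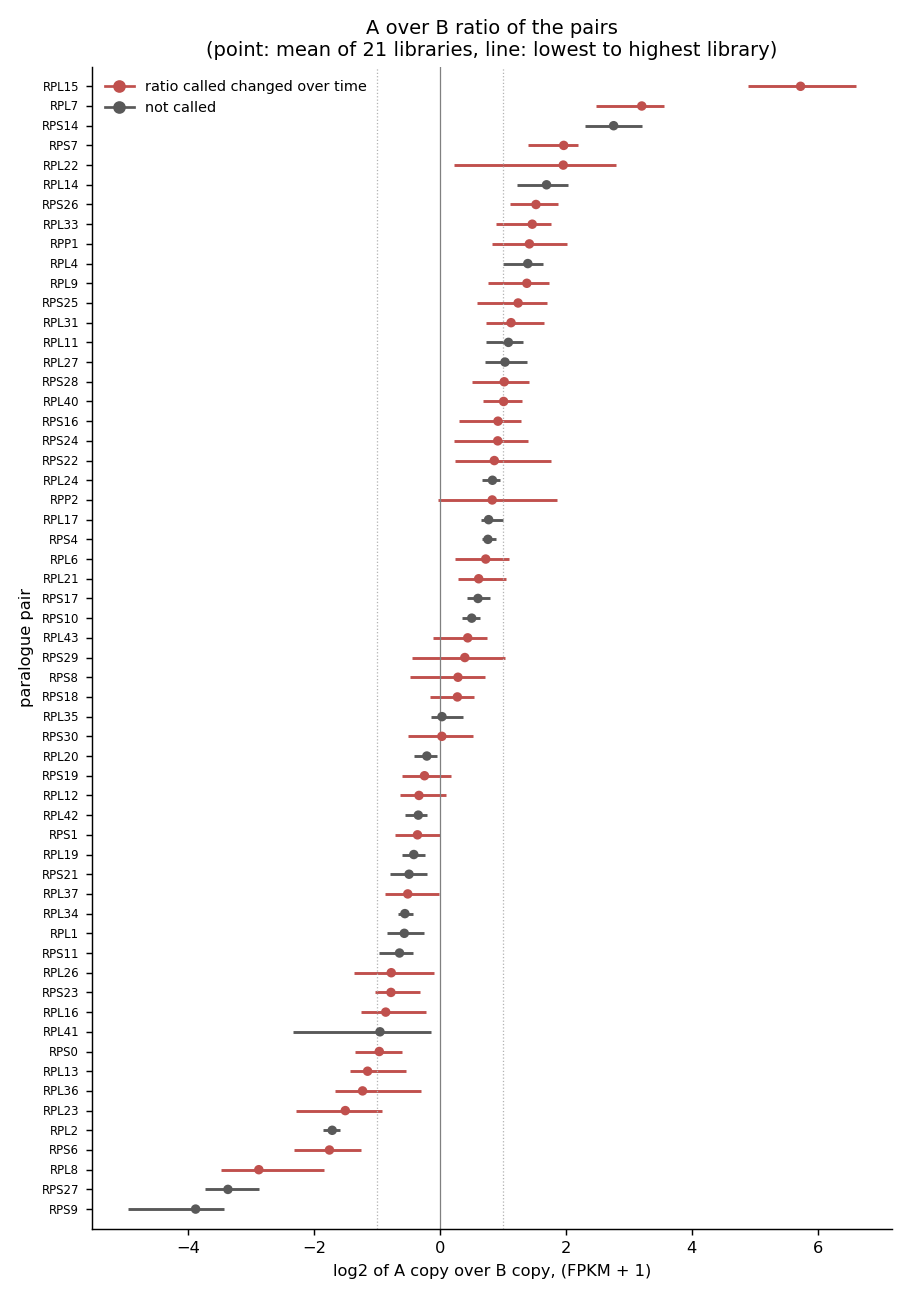
For each pair shown the point is the mean over 21 libraries of log2 A over B, from FPKM + 1, and the line runs from the lowest to the highest library, in red where the ratio was called changed over time. RPL15 lies farthest to the A side (53.1-fold) and RPS9 farthest to the B side (14.8-fold).

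The ratio of the copies was called changed over time in a smaller share of pairs than of loci and pairs together. By an adjusted p under 0.05 and a fitted range of at least 0.5 in limma, 37 of 59 pairs were called, or 62.7%. Of the 6257 rows of loci and pairs fitted together 75.3% were called. Nearly all of those rows are levels of single loci, not ratios, so the measures differ. Late minus early, the A over B ratio was higher late in 15 pairs and lower late in 14, where 25.9% and 22.8% of rows were. As shares of the 59 pairs these counts lay near those of the rows. Late and early ratios did not overlap in 8 pairs, among them RPL6, RPL15, RPL26, RPS1, RPS25, RPS28 and RPS30. The levels of single loci did not overlap in 3.07% of loci with lower and 2.32% with higher late values. Of the 8 pairs, 6 have a copy right of the ribosomal RNA genes on chromosome XII, as do 10 of all 59 pairs. That grouping was prompted by the same late and early values, so this count is a description only. Both copies were lower late in 41 pairs, 1 copy in 14 and neither in 4. The SD of the log2 ratio over libraries had a median of 0.22 and ran from 0.058 to 0.628. Of the 39 pairs under 95% identical 28 were called, and of the other 20 pairs 9 were. Reads that match both copies make the ratio of the most alike pairs uncertain: in the RPL1 pair, 99.4% identical, 81.0% of the 50-base windows of the A copy also occur in the B copy, and none do in the RPL22 pair.

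The widest range was that of RPL22. RPL22A had 4042 FPKM at the arrest, 1915 at 20 min, 3700 at 50 min, then 2001 at 200 min, and RPL22B had 618, 1645, 872 and 317 FPKM at those times. The log2 ratio of A over B was thus 2.71, 0.22, 2.08 and 2.66 at these 4 times, and A made up 86.7%, 53.8%, 80.9% and 86.3% of the pair. RPL22A stayed the higher copy in all 21 libraries, and at 20 min the copies came nearest. The fitted range was 1.91 (adjusted p = 0.00399), and the call was lost without the 30 min library (adjusted p = 0.0803) and with a spline of 4 degrees of freedom (adjusted p = 0.148).

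The RPL8 ratio was highest at the arrest and lowest in the last library. RPL8A over RPL8B had a log2 ratio of -1.85 at 0 min, -2.55 at 50 min, then -3.18 at 100 min and -3.48 at 200 min, and the A share of the pair was 21.7% at 0 min and 8.17% at 200 min. The fitted range was 1.63 (adjusted p = 9.10e-11), and the late minus early difference was -0.65 (SE 0.14, adjusted p = 0.000661). These copies are 95.1% identical and 6.93% of the 50-base windows of A occur in B. RPP2A over RPP2B was highest at 20 min (1.86) and lowest at 120 min (-0.03), with a fitted range of 1.61 (adjusted p = 0.00313). Its call was lost without the 30 min library (range 1.36, adjusted p = 0.0533) and with a spline of 4 degrees of freedom (range 1.03, adjusted p = 0.0531).

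Among the other pairs with a wide range, the ratios of RPL15 and RPS22 were lower late and those of RPS29 and RPL26 higher late, each at an adjusted p under 0.05. RPL15A over RPL15B was 6.00 at 0 min, 6.61 at 40 min and 5.10 at 200 min (range 1.43, adjusted p = 1.90e-05), with late values from 4.89 to 5.63 all below the early ones from 5.67 to 6.61. RPS22A over RPS22B was 1.76 at 0 min and 0.48 at 200 min (range 1.26, adjusted p = 3.11e-08). RPS29A over RPS29B was -0.40 at 0 min and 0.79 at 200 min (range 1.40, adjusted p = 6.26e-07), so the higher copy changed. RPL26A over RPL26B was -1.06 at 0 min, -1.37 at 60 min and -0.10 at 200 min (range 1.26, adjusted p = 5.65e-08), with no overlap. RPL26B had 2985, 3524 and 4227 FPKM late against 4365, 5600 and 7368 FPKM early, while RPL26A had 2376, 2766 and 3112 FPKM late against 2177, 2582 and 3059 FPKM early.

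**Figure D5:**
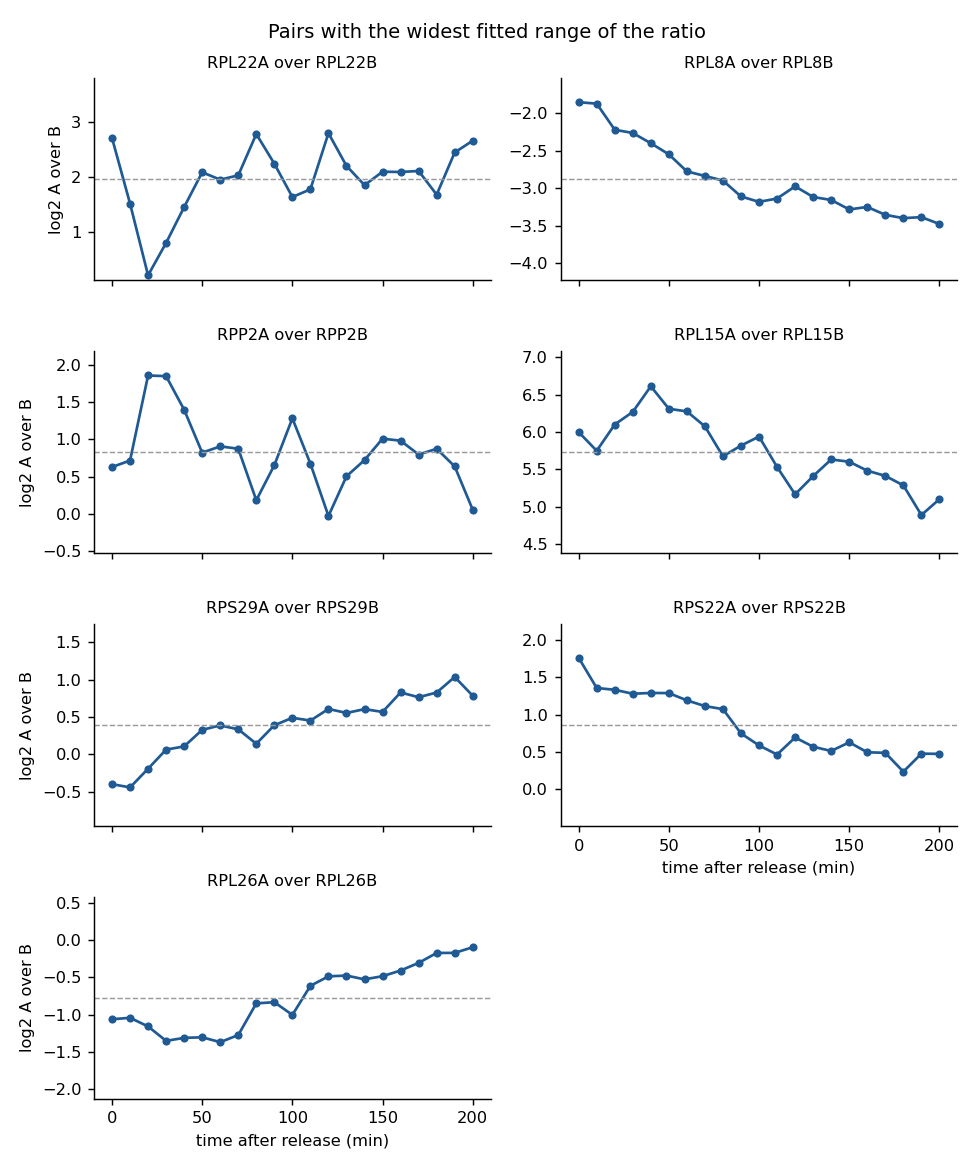
Each panel plots log2 A over B of a pair, from FPKM + 1, against time after release in min, for 7 of the pairs with the widest fitted range, with the mean as a dashed line; the vertical axes are centred on each pair's mean. RPL22 is lowest at 20 min (0.22), and RPL8 runs from -1.85 at 0 min to -3.48 at 200 min.

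Some ratios held almost still. RPL34A over RPL34B lay between -0.67 and -0.42 in all 21 libraries with a fitted range of 0.07 (adjusted p = 0.955), and RPL24A over RPL24B between 0.66 and 0.95 with a fitted range of 0.09 (adjusted p = 0.924). Their copies are 92.6% and 92.5% identical, against 95.1% for RPL8. By shared 50-base windows the order differs: 12.9% of those of RPL34A occur in RPL34B, against 4.06% for RPL24 and 6.93% for RPL8. RPL2A over RPL2B lay between -1.85 and -1.59, while RPL2A itself ran from 295 to 1405 FPKM. The RPL2 copies are 96.3% identical, and 28.4% of the 50-base windows of A occur in B, so reads that match both may enter this ratio.

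The sequence before the start codon was searched for the known binding motifs of Rap1 and Abf1, on both strands of the 600 bases before the start codon in R64. The Rap1 motif, taken as ACCCNNACA with a further C before it, was found in 32 of 137 members, or 23.4%, and in 2.56% of the 5983 loci searched. ACCCNNACA alone, which every match of the longer form also holds, was found in 57 members, or 41.6%, and in 6.49% of the loci. The Abf1 motif, taken as TCANT and ACG with 4 free bases between them, was found in 14 members, or 10.2%, and in 10.7% of the loci. The Rap1 matches lay at a median of 328.5 bases before the start codon. The median late minus early difference was -0.52 in the 32 members with the longer Rap1 motif and -0.54 in the members without it. RPL34A and RPL34B, whose ratio held almost still, also carry the longer motif. The windows below show 60 bases around the match, in capitals, for RPL8A (chrVIII:36231-36290, - strand), RPL22B (chrVI:65144-65203, - strand) and RPL2A (chrVI:221897-221956, - strand). These members were chosen because they carry the motif and are among the largest departures from the common course. A link between motif and departure was not tested.
RPL8A: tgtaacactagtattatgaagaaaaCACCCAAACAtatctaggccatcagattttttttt
RPL22B: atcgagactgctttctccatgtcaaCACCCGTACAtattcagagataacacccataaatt
RPL2A: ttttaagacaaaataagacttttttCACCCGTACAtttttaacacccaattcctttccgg

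Genes that act with the ribosomal proteins were counted from lists drawn up for them. Of 11 regulators 5 were lower late and 1 was higher in limma, with a median difference of -0.20. RAP1 had a mean of 22.4 FPKM late and 40.2 FPKM early (difference -0.80, adjusted p = 1.78e-05), SFP1 32.4 and 50.5 FPKM (-0.58, adjusted p = 0.000405) and TOD6, a repressor of ribosome biogenesis genes, 36.1 and 64.3 FPKM (-0.80, adjusted p = 3.28e-06). STB3 was the higher one, with 28.6 FPKM late and 23.1 FPKM early (0.30, adjusted p = 0.00031). IFH1 (-0.09, adjusted p = 0.286) and FHL1 (-0.20, adjusted p = 0.0799) did not pass. Of 17 dedicated chaperones and ribosome-bound factors 8 were lower and 0 higher, with a median of -0.28. ASC1, which encodes a scaffold protein of the small subunit, had a mean of 1044 FPKM late and 2245 FPKM early (-1.08, adjusted p = 4.79e-05), and SYO1, a chaperone for import of large subunit proteins, 70.6 and 121 FPKM (-0.76, adjusted p = 3.48e-06). ACL4, the chaperone of Rpl4, differed by -0.15 (adjusted p = 0.167). Of 22 translation factors 12 were lower and 0 higher, with a median of -0.31. TIF4631, an initiation factor eIF4G, had 91.6 FPKM late and 155.5 FPKM early (-0.75, adjusted p = 4.54e-06), PAB1 247 and 382 FPKM (-0.62, adjusted p = 7.75e-06), and the elongation factor genes TEF1 and TEF2 differed by -0.015 and -0.0039 (adjusted p = 0.958 and 0.991). Among all loci 22.7% were lower late.

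Outside the family the courses most like the mean of the members, by Pearson's r of log2(FPKM + 1) over the 21 libraries and given with no test, were those of HAM1 (0.966), COX13 (0.965), TIF3 (0.947), YRA2 (0.929), GIS2 (0.928), YER156C (0.919), PCT1 (0.918), GAR1 (0.917), YDL129W (0.914) and RSN1 (0.910). HAM1 had 114.8 FPKM at 0 min, 111 at 50 min and 54.0 at 200 min, and COX13 had 1062, 1071 and 670 FPKM. Of the 10, TIF3 is on the list of translation factors above.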

How the data were processed

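The authors sequenced 21 libraries made with a KAPA stranded mRNA kit, per the labels' protocols; STAR, Cufflinks, Cuffnorm and build R64 are named in the submitters' processing notes (versions not given in the sources used here). Each deposited value was read as FPKM with 1 added by the authors, inferred from the values, and 1 was subtracted. Depth per library is unknown, so no counting interval is given. A table of 50 wild-type columns of another series was not used here.

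The tests ran on log2(FPKM + 1) in R 4.3.3 using limma 3.58.1 and its mean-variance trend, a minimum mean of 1 FPKM, and Benjamini-Hochberg adjustment over all loci (0.05). Pair ratios were fitted together with all loci. The fits were tested on simulated data. Motifs, coding identity (Biopython 1.88) and sequences come from the R64 genome. Alternatives covered scaling, pseudocount, filter, variance model, spline, windows and left-out libraries. The members and lists were chosen with earlier results of these data known. Named members were those with the largest and smallest ranges, differences, departures, levels and ratios, 2 to 8 of each, and all stalk genes. A result of 1 pair among these is not reported here.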

Additional observations from a re-analysis of the deposited data

How the results depend on the processing

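The median late minus early difference of the members stayed negative under all settings run. It lay between -0.59 and -0.49 with each library left out, and 107 to 117 members were lower late there against 112. Every other time point gave 60 lower late and 0 higher late, and 6 pair ratios higher and 6 lower late, against 15 and 14; it uses fewer libraries. Higher late were 5 members with one sum of FPKM per library, 3 with one sum outside the family, 0 without the 120, 180 and 190 min libraries (a choice made after seeing the data), and 1 to 2 with each library left out. Scaling to one sum gave medians of -0.31 for the members and 0.24 for all loci, against 0.04 for all loci without it.

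Members called changed over time numbered 37 with one sum per library, 45 without the 0 and 10 min libraries, 48 with a spline of 4 degrees of freedom, and 53 to 83 with each library left out, against 78. Shares of all loci called under the alternative settings are not given here, so all these counts describe the members and pairs alone. Departing members numbered 12 without the 0 and 10 min libraries, 12 with 4 degrees of freedom, and 11 to 24 with each library left out. Pair ratios called over time numbered 30 to 40 with each library left out, and late ratios 15 to 19 higher and 12 to 16 lower. The 0 min comparison reversed to 0.053 with one sum outside the family, and at least 1 lower were 5 (one sum) and 3 (one sum outside the family) members. The highest share was 52.1% without the 10 most abundant loci outside the family. The cause of these shifts was not tested. Of the checks on single named genes and pairs, 3050 stayed on the same side of the threshold, called or not, 64 gained a call, 74 lost one and 0 reversed. No paired analysis was possible because there is a single culture with 1 library per time point, so nothing pairs libraries across the windows. Depth is unknown, so low and short members limit what can be compared.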
